A study of Mus musculus with 16 samples.

Results

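The expression of 8 genes that mark dendritic cells was examined in RNA from tumor tissue of 16 mice with colorectal liver metastasis. The genes were chosen by name, for what they are known to mark, with earlier results of these data known, and all 8 were found among the 21959 genes listed: Xcr1, Clec9a and Batf3 for the type 1 conventional dendritic cell (cDC1), Flt3 and Zbtb46 for dendritic cell development, Cd209a for the type 2 conventional (cDC2) and monocyte-derived cell, Siglech for the plasmacytoid cell (pDC) and Fscn1 for the mature, migrating cell. Every host was a male wild-type C57BL/6 mouse, 6 weeks old when MC38 cells, a mouse colon adenocarcinoma line, were injected into the lower hemispleen, from where they seed the liver. There were 4 mice in each of 4 groups: a control group that received PBS, a group given SB525334, a small-molecule inhibitor of the TGF-β receptor I kinase ALK5, by gavage at 20 mg/kg each day, a group given KN046, a bispecific antibody against PD-L1 and CTLA-4, by intraperitoneal injection at 10 mg/kg 2 times a week, and a group given both (the combination). MC38 is 1 transplanted line in hosts with an intact immune system, and the labels name no sorting step, so the RNA comes from tumor, liver and infiltrating cells together.

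Dendritic cells take up antigen in the tumor, mature, migrate to the draining lymph node and prime T cells there. cDC1 cross-present antigen from dead cells to CD8+ T cells and depend on the factors Batf3 and Irf8, cDC2 mainly prime CD4+ T cells, and pDC produce type I interferon. The cells grow in response to the ligand of Flt3, and cDC1 are drawn by Xcl1, the ligand of Xcr1, which NK cells and T cells release. In liver tissue dendritic cells are few beside Kupffer cells, the resident macrophages. In bulk tissue, fewer cells of a type and less RNA per cell cannot be told apart.

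Clec9a was lower in mean than control in each treated group, as were Batf3, Flt3, Cd209a and Siglech. Cd209a was the only member that passed the test in any comparison. The 250 bases before the start of the canonical transcript are shown for Clec9a and Cd209a. Both were read from GRCm39 and are written 5′ to 3′ on the strand of the gene, Clec9a from chr6:129385575-129385824 on the plus strand and Cd209a from chr8:3798985-3799234 on the minus strand. Capitals mark matches to the interferon regulatory factor motif AANNGAAA on either strand.
Clec9a: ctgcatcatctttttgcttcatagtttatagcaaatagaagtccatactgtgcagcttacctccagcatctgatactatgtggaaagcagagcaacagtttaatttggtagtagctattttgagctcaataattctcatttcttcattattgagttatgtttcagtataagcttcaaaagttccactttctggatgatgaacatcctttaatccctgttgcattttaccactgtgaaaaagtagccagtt
Cd209a: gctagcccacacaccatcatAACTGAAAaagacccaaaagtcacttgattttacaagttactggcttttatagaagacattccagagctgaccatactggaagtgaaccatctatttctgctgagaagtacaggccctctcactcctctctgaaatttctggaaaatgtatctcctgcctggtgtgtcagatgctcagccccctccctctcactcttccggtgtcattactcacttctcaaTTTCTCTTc
The Cd209a window held 2 matches to AANNGAAA, at bases -230 to -223 on the strand of the gene and at bases -9 to -2 on the other strand, and the Clec9a window held none. Searched on both strands, AANNGAAA was in the window of 1 of the 8 members and in 19.7% of the windows of 13955 genes tested. The PU.1 core GAGGAA was in 1 of the 8 (Batf3, at bases -64 to -59) against 23.3% of all windows, and the AP-1 motif TGANTCA, the element that Batf3 dimers bind together with interferon regulatory factors, was in 0 of the 8 against 4.82%. The Clec9a window had a GC content of 35.6% and the Cd209a window one of 44.8%, against a median of 56.4% over all windows. A match is only a run of letters and says nothing of binding.

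Between 18368994 and 23877131 counts were deposited per mouse. Levels are given as CPM, a gene's counts scaled to the library total after adjustment of that total by the trimmed mean of M values (TMM), and p-values come from edgeR's quasi-likelihood test across 13968 genes with Benjamini-Hochberg adjustment, called under 0.05. Some libraries stood apart from their group. Control mice 1 and 2 were close to each other, and so were control mice 3 and 4: a chi-square test of each pair's counts passed its 95% point for 24.8% and 18.1% of genes, against 42.9% or more for every other pair of a group, and with each pair summed to 1 sample edgeR called 0 genes between KN046 and control, with 1844 at an unadjusted p under 0.05. The 2 libraries of each pair differed by more than sampling noise, which cannot show whether they came from separate mice. They were kept as 4 samples. If a pair came from 1 mouse, n = 4 for control is too high and the p-values against control are too small. The hepatocyte marker sum was 20300 to 25200 CPM in control, 841 to 2950 CPM with SB525334, 12000 to 25600 CPM with KN046 and 79.7 to 104 CPM in the combination, and the Kupffer cell sum was 172 to 351, 10.4 to 26.3, 64.7 to 423 and 3.28 to 13.5 CPM in the same order. KN046 mouse 2 had the highest Kupffer cell sum of the 16.

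The 8 genes were measured at very different levels. Divided by exon length, the mean over the 16 mice was 152 CPM per kb for Fscn1, and the other members lay between 0.0924 CPM per kb for Siglech and 0.819 CPM per kb for Zbtb46. In that order Zbtb46 was followed by Cd209a at 0.693, Batf3 at 0.63, Clec9a at 0.613, Flt3 at 0.234 and Xcr1 at 0.114 CPM per kb. The ranges over the mice overlapped from Zbtb46 to Clec9a. In reads, Fscn1 had 151591 counts over the 16 mice, Zbtb46 4466, Clec9a 677, Flt3 517, Cd209a 380, Batf3 338, Xcr1 175 and Siglech 155, and Xcr1 was at 0 counts in 2 mice and Siglech in 3. Each of the 8 passed the filter on low counts. For Xcr1 and Siglech many values rest on fewer than 10 counts.

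**Figure D1:**
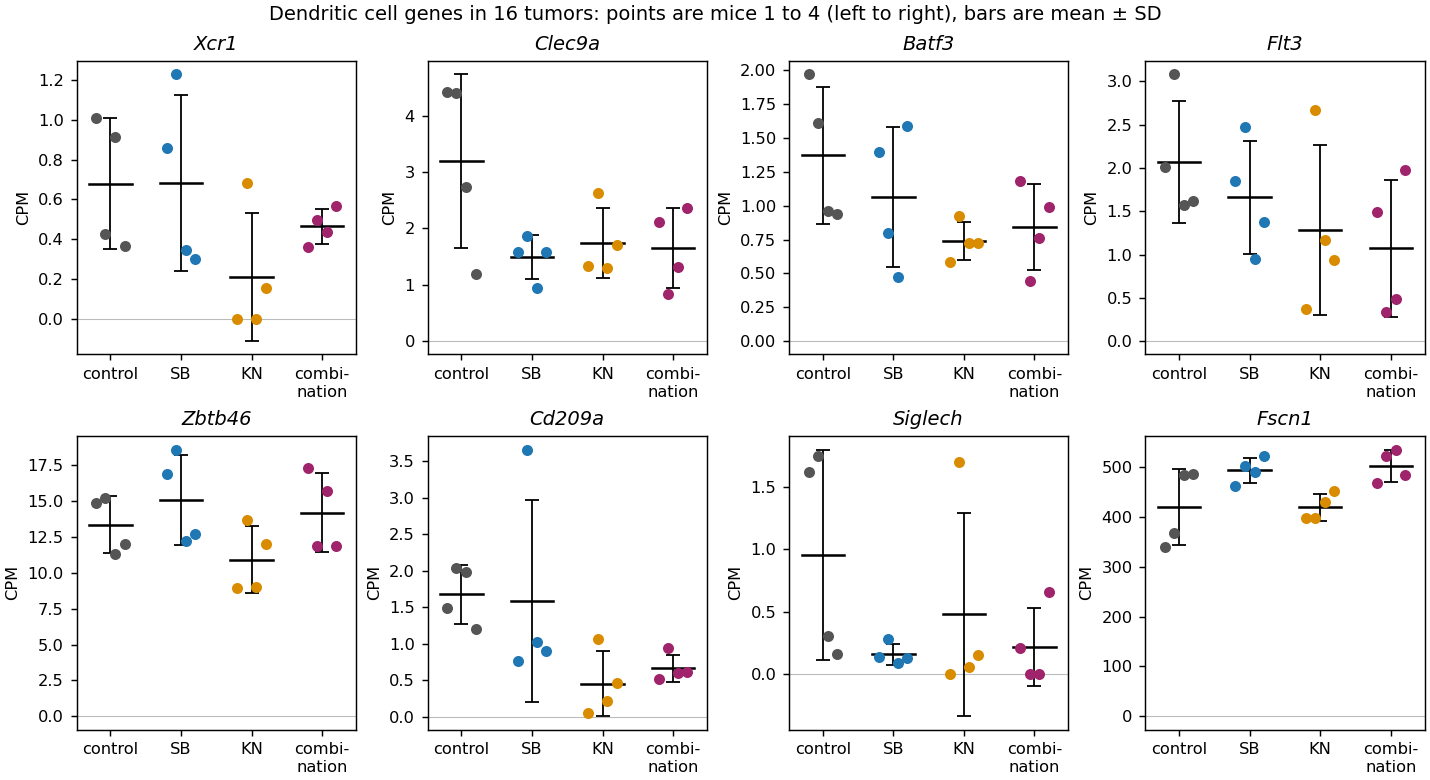
CPM (y axis) of each gene in the 4 groups (x axis, SB for SB525334 and KN for KN046), with a point for each mouse and the mean ± SD of 4 mice in black. Cd209a lay at 1.2 to 2.04 CPM in control and at or below 1.07 CPM in all KN046 and combination mice, while Fscn1 lay between 341 and 536 CPM throughout.

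Xcr1 (ENSMUSG00000060509, chr9:123681380-123691094) encodes the chemokine receptor that defines cDC1. Its level was 1.01, 0.426, 0.913 and 0.366 CPM in control mice 1 to 4, 0.859, 1.23, 0.344 and 0.302 CPM with SB525334, 0, 0.681, 0 and 0.156 CPM with KN046, and 0.359, 0.497, 0.437 and 0.566 CPM in the combination. The lowest values, including both zeros, were KN046 mice, but KN046 mouse 2 lay inside the ranges of control and SB525334 and above every combination mouse. With 0 counts, the upper limit of 3 counts is also what KN046 mouse 4 had. The log2 difference from control was 0.01 ± 0.68 (SE, n = 4 mice a group) with SB525334, -1.62 ± 0.78 with KN046 and -0.54 ± 0.71 in the combination, with adjusted p-values of 0.995, 0.219 and 0.703. Without KN046 mouse 2 the KN046 group held 0, 0 and 3 counts, and Xcr1 was then called lower than in control (adjusted p = 0.0169), SB525334 (0.00803) and the combination (0.0236), so this 1 mouse decided the call.

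Clec9a (ENSMUSG00000046080, chr6:129385825-129401726) is the receptor by which cDC1 bind actin exposed on dead cells. Control mice had 4.42, 4.4, 2.74 and 1.2 CPM, the SB525334 mice 1.58, 1.87, 0.947 and 1.59 CPM, the KN046 mice 1.33, 2.63, 1.29 and 1.71 CPM and the combination mice 2.11, 0.828, 1.31 and 2.36 CPM. The first 3 control mice lay above all 12 treated mice, and control mouse 4 lay among them, so no treated group was clear of control. The log2 difference from control was -1.09 ± 0.41 with SB525334, -0.87 ± 0.41 with KN046 and -0.95 ± 0.41 in the combination (SE, n = 4), and the 95% intervals reached -0.23, -0.01 and -0.08. The adjusted p-values were 0.125, 0.211 and 0.178. Without control mouse 4 Clec9a was called in SB525334 (-1.35, adjusted p = 0.028) and in the combination (-1.21, adjusted p = 0.0476), and without control mouse 1, 2 or 3 it was not. The 3 treated groups were within 0.22 log2 units of each other.

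Batf3 (ENSMUSG00000026630, chr1:190830044-190841142) encodes the AP-1 family factor that cDC1 need. It was at 1.97, 1.61, 0.964 and 0.941 CPM in control, 1.4, 0.796, 0.473 and 1.59 CPM with SB525334, 0.586, 0.924, 0.726 and 0.727 CPM with KN046 and 1.18, 0.441, 0.764 and 0.99 CPM in the combination. All KN046 mice lay below all control mice, by a gap between 0.924 and 0.941 CPM, while the SB525334 and combination mice overlapped with control. The log2 difference was -0.88 ± 0.42 for KN046 against control (adjusted p = 0.212), -0.7 ± 0.41 for the combination (0.343) and -0.37 ± 0.4 for SB525334 (0.714). The exact two-sided permutation test of KN046 against control gave 0.0286, the smallest p that 4 against 4 mice allow, which became 0.275 after adjustment over the 48 such tests. Over 18 alternatives the KN046 difference lay between -1.03 and -0.65 and was called in none.

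Flt3 (ENSMUSG00000042817, chr5:147267551-147337483) is the receptor tyrosine kinase on dendritic cells and their precursors. The 4 control mice had 2.01, 3.08, 1.57 and 1.62 CPM, the SB525334 mice 1.85, 2.47, 0.947 and 1.38 CPM, the KN046 mice 0.373, 2.67, 1.17 and 0.935 CPM and the combination mice 1.49, 0.331, 0.491 and 1.98 CPM. The values of 3 mice were under 0.5 CPM, in KN046 mouse 1 and combination mice 2 and 3, and KN046 mouse 2 was again at the level of control. The differences from control were -0.32 ± 0.53, -0.68 ± 0.55 and -0.93 ± 0.55 log2 units for SB525334, KN046 and the combination, and their adjusted p-values lay between 0.345 and 0.83. Its ligand gene Flt3l was at 2.09 to 5.25 CPM in control and 1.99 to 4.88 CPM over the treated mice, with adjusted p-values of 0.68 to 0.758.

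Zbtb46 (ENSMUSG00000027583, chr2:181012111-181104879) encodes a zinc finger factor that separates conventional dendritic cells from other myeloid cells and is also made by endothelial cells. It was at 14.9, 15.2, 11.3 and 12 CPM in control, 16.9, 18.6, 12.2 and 12.7 CPM with SB525334, 8.95, 13.7, 9 and 12 CPM with KN046 and 17.3, 11.9, 15.7 and 11.9 CPM in the combination. KN046 mice 1 and 3 were the lowest of the 16. No comparison with control passed the test, with differences of 0.18 ± 0.19, -0.29 ± 0.19 and 0.09 ± 0.19 log2 units, and its 95% intervals kept any difference from control within 0.7 log2 units. SB525334 lay above KN046 by 0.47 ± 0.19 (adjusted p = 0.0932). The endothelial marker sum was 98.3 to 218 CPM in control, 42.2 to 96.7 CPM with SB525334, 159 to 218 CPM with KN046 and 96.3 to 112 CPM in the combination. The part of endothelial cells in the Zbtb46 level was not tested.

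**Figure D2:**
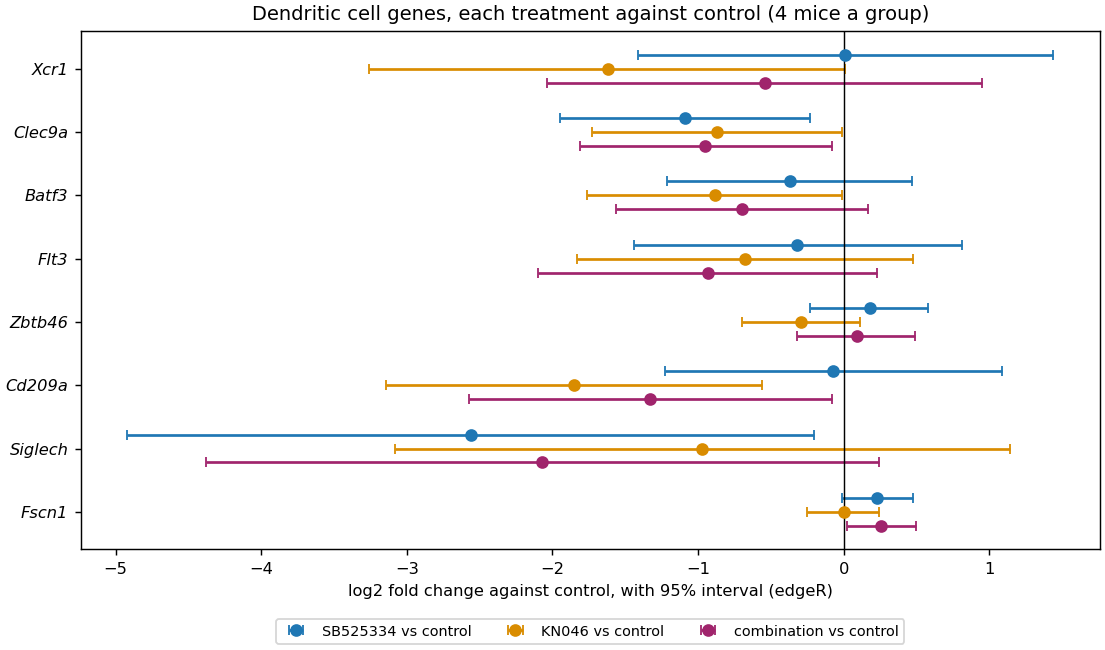
Log2 fold change of each treatment against control (x axis) for the 8 genes (y axis), with bars for the 95% interval of the edgeR fit. All 8 KN046 points lie at or below 0, and the intervals of Xcr1 and Siglech are several times as wide as those of Zbtb46 and Fscn1.

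Cd209a (ENSMUSG00000031494, chr8:3793397-3798984), a C-type lectin of the DC-SIGN family found on cDC2 and monocyte-derived cells, was the only member called in any comparison. It has close paralogs on the same chromosome, and reads shared with them are uncertain here. Control mice had 1.49, 2.04, 1.98 and 1.2 CPM, KN046 mice 0.0533, 1.07, 0.224 and 0.468 CPM and combination mice 0.513, 0.938, 0.6 and 0.613 CPM. Every mouse that received KN046, alone or with SB525334, lay below every control mouse. The SB525334 mice had 0.768, 3.66, 1.03 and 0.905 CPM, so that 3 of them were below all controls and mouse 2 was above all other mice. Against control the log2 difference was -1.85 ± 0.61 with KN046 (adjusted p = 0.0883), -1.33 ± 0.59 in the combination (0.193) and -0.07 ± 0.55 with SB525334 (0.97). The exact permutation p was 0.0286 for both KN046 and the combination against control, and 0.275 after adjustment.

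Between the 2 single treatments Cd209a was higher with SB525334 than with KN046 by 1.78 ± 0.61 log2 units (adjusted p = 0.048), the only call among the 8 genes in all 7 comparisons. The groups overlapped, since KN046 mouse 2 at 1.07 CPM lay above SB525334 mice 1, 3 and 4. Without SB525334 mouse 2 the difference was 0.96 (adjusted p = 0.248), and the call was also lost without SB525334 mouse 3 or KN046 mouse 1, 3 or 4, at adjusted p-values of 0.053, 0.121, 0.118 and 0.0758. With library totals in place of TMM the difference was 1.83 (adjusted p = 0.0505). Against control, Cd209a was called lower in KN046 by DESeq2 (-1.86, adjusted p = 0.0347) and by edgeR without KN046 mouse 2 (-2.71, adjusted p = 0.0147). In the combination it was called when the 8 mice of the comparison were fitted alone (adjusted p = 0.0177).

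Siglech (ENSMUSG00000051504, chr7:55417926-55429195) is a sialic acid binding receptor of mouse pDC. Its level was 1.62, 1.75, 0.304 and 0.157 CPM in control, 0.136, 0.279, 0.0861 and 0.129 CPM with SB525334, 0, 1.7, 0.0559 and 0.156 CPM with KN046 and 0.205, 0, 0 and 0.66 CPM in the combination. Control mice 1 and 2 and KN046 mouse 2 had 35 to 37 counts, and each of the other 13 mice had 14 or fewer, so the gene separated mice within the control and KN046 groups more than it separated groups. The log2 difference from control was -2.56 ± 1.12 with SB525334 (adjusted p = 0.214), -0.97 ± 1.0 with KN046 (0.589) and -2.07 ± 1.1 in the combination (0.283). Without KN046 mouse 2 the other KN046 mice held 0, 1 and 3 counts and the gene was called lower than in control (adjusted p = 0.0486). At this depth a difference between the treated groups was not detectable.

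Fscn1 (ENSMUSG00000029581, chr5:142946098-142958953) encodes fascin, an actin-bundling protein that mature dendritic cells switch on and that fibroblasts and carcinoma cells also make. It was at 341, 369, 485 and 487 CPM in control, 463, 503, 490 and 523 CPM with SB525334, 398, 398, 430 and 452 CPM with KN046 and 469, 523, 536 and 484 CPM in the combination. Per length its level was over 100 times that of any other member, so these reads cannot be assigned to dendritic cells, and their source was not tested. All SB525334 mice and all combination mice lay above all KN046 mice, with differences of 0.24 ± 0.12 (adjusted p = 0.151) and 0.26 ± 0.12 log2 units (0.103). Control mice were split, with mice 1 and 2 below every treated mouse and mice 3 and 4 above every KN046 mouse. With library totals in place of TMM the difference from KN046 was called for both groups, at adjusted p-values of 0.0338 (0.3 log2 units) and 0.0403 (0.28). Fscn1 ran opposite to Siglech and Clec9a over the 16 mice, with Pearson r of log2(CPM + 1) of -0.73 and -0.69. With summed markers its r was -0.79 for endothelial, -0.76 for Kupffer and -0.63 for hepatocyte markers. It was 0.58 for epithelial and 0.56 for mature dendritic cell markers.

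Counted over the 8 members, none was called with SB525334 against control, where 9.61% of all genes were called, and 2 (Clec9a and Siglech) had an unadjusted p under 0.05, as had 18.9% of all genes. With KN046 against control edgeR called 0 of 8 and 4.0% of all genes, and DESeq2 called 1 of 8 (Cd209a) and 6.98% of all genes. By edgeR 3 of 8 had an unadjusted p under 0.05 (Batf3, Cd209a and Clec9a), as had 23.1% of all genes. In the combination against control 0 of 8 were called by either tool, where edgeR called 11.1% of all genes, and 3 had an unadjusted p under 0.05 (Clec9a, Cd209a and Fscn1), as had 22.1% of all genes. The combination against KN046 gave 0 of 8 against 24.4% of all genes, and 1 (Fscn1) had an unadjusted p under 0.05 against 39.0%. The combination against SB525334 gave 0 of 8 against 3.57% of all genes, and 1 (Cd209a) had an unadjusted p under 0.05 against 9.19%. SB525334 against KN046 gave 1 of 8 against 20.0%, and 3 (Xcr1, Zbtb46 and Cd209a) had an unadjusted p under 0.05 against 35.1%. DESeq2 likewise called 0 of 8 with SB525334 against control and in both comparisons of the combination with a single treatment. The interaction, the difference between the combination and KN046 less that between SB525334 and control, gave 0 of 8 by both tools, where edgeR called 4.28% of all genes, and 0 had an unadjusted p under 0.05 against 16.6%.

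The groups were free of overlap for 2 members in KN046 against control (Batf3 and Cd209a, lower), where this held for 11.6% of all genes, for 1 in the combination against control (Cd209a, lower) against 17.4%, for 1 in the combination against KN046 (Fscn1, higher) against 20.3% and for 1 in SB525334 against KN046 (Fscn1, higher) against 22.6%. It held for 0 members in SB525334 against control, where the share of all genes was 18.3%, and for 0 in the combination against SB525334, where it was 7.05%. The median log2 difference of the 8 members from control was -0.19 with SB525334, -0.88 with KN046 and -0.81 in the combination, while the medians of all genes tested were 0.0, -0.03 and 0.01. With KN046 all 8 members had a difference below 0, as had 53.3% of all genes. For Fscn1 it was below 0 by less than 0.01 and lay between -0.09 and 0.07 over the alternatives. In the combination 6 of 8 were below 0, as were 48.3% of all genes, and in SB525334 5 of 8, as were 49.9%. Comparisons with control share the control mice, and the members are not replicates of each other.

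**Figure D3:**
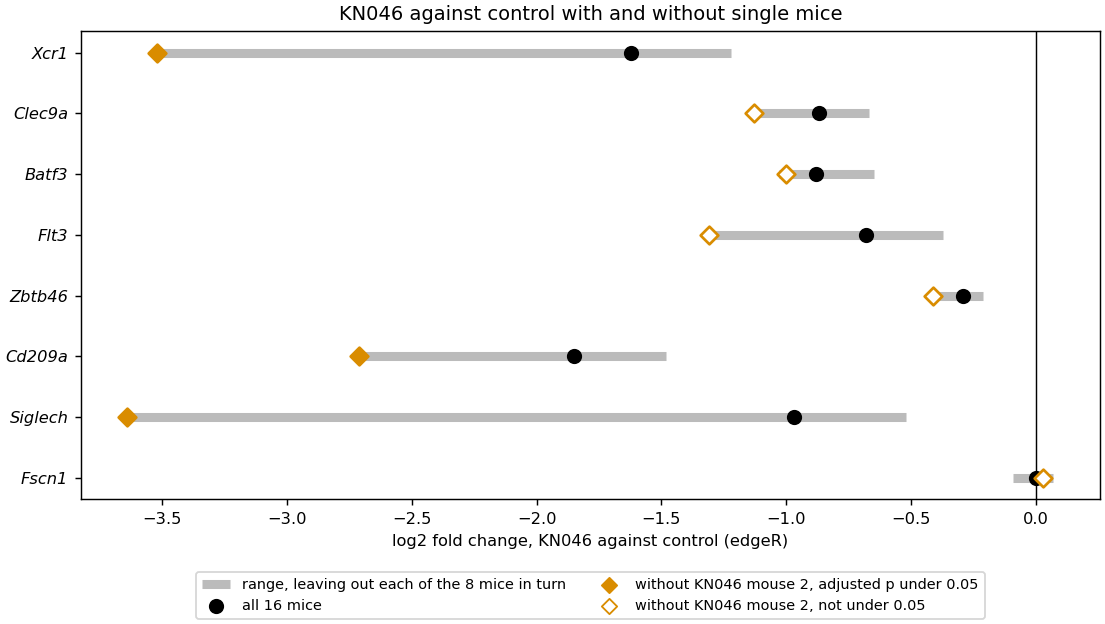
Log2 fold change of KN046 against control (x axis) for the 8 genes (y axis) with all mice (black), without KN046 mouse 2 (diamonds, filled where called) and over all 8 ways of leaving out a mouse (gray bar). Leaving out KN046 mouse 2 moved Xcr1, Cd209a and Siglech past the threshold, and the points of Xcr1 and Siglech then rest on 3 and 4 counts in all.

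Leaving out KN046 mouse 2 changed the call of 6 of the 32 member differences that use the KN046 group, all 6 being called without it, and left the call of the other 26 as it was. It had the highest level of its group for Xcr1, Clec9a, Batf3, Flt3, Zbtb46, Cd209a and Siglech, and shared the lowest Fscn1 level, 398 CPM, with mouse 1. Its summed leukocyte markers were 368 CPM against 241 to 310 CPM in the other KN046 mice, and its T cell markers 22.1 CPM against 8.33 to 16 CPM. Without it 3 of 8 members were called lower with KN046 than with control (Xcr1, Cd209a and Siglech) where 14.9% of all genes were called, 3 of 8 were called higher with SB525334 than with KN046 (Xcr1, Zbtb46 and Cd209a) against 25.2%, and 1 of 8 was called higher in the combination than with KN046 (Xcr1) against 27.2%. The sign of the Siglech difference between the combination and KN046 changed from -1.1 to 1.58, neither of them called.

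The wider gene lists for dendritic cells, which hold none of the 8 members, had 58 genes tested. With SB525334 against control 11 (19.0%) were called, with KN046 4 (6.9%) and in the combination 9 (15.5%), where the shares of all genes were 9.61%, 4.0% and 11.1%. Of 11 cDC1 genes, 1 fell with KN046: Irf8, the factor that partners Batf3, was at 50.7 to 59.7 CPM in control, 19.6 to 32.7 CPM with KN046, 28.1 to 47.9 CPM with SB525334 and 39.7 to 59.9 CPM in the combination. It fell by 1.0 log2 units with KN046 (adjusted p = 0.0166), a call kept in 6 of 8 fits that left out a mouse and lost without KN046 mouse 1 or 3 and with the control pairs summed (adjusted p = 0.171). It was higher in the combination than with KN046 by 0.79 (adjusted p = 0.00611), a call kept in all 8 such fits. The interaction was 1.34 (adjusted p = 0.00638) and was called in all 16 fits that left out a mouse and with the control pairs summed (adjusted p = 0.0323). Irf8 stood far above Xcr1, Clec9a and Batf3 in CPM, and the cells its reads came from were not tested.

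Ifi205, an interferon-induced gene of cDC1 from a family of similar copies, was also lower with each single treatment than in the combination. It was at 8.26 to 11.1 CPM in control, 4.99 to 7.19 CPM with SB525334, 3.24 to 6.86 CPM with KN046 and 7.73 to 13.5 CPM in the combination, and its interaction was 1.63 (adjusted p = 0.00638), called in all 16 fits. It fell with SB525334 by 0.78 (adjusted p = 0.036), a call kept in 2 of 8 fits. Bst2, the pDC antigen tetherin, which interferon induces in many cells, stood at 122 to 161, 89.7 to 119, 79 to 113 and 130 to 167 CPM in control, SB525334, KN046 and the combination. Its interaction of 1.04 (adjusted p = 0.00339) was called in all 16 fits, and its falls of 0.47 with SB525334 and 0.5 with KN046 (adjusted p = 0.03 and 0.046) in 4 and 1 of 8. Ccl5, a chemokine of activated T cells and NK cells that draws dendritic cells, was at 9.59 to 11.5, 4.91 to 7.59, 2.24 to 5.06 and 5.84 to 17 CPM, with an interaction of 2.2 (adjusted p = 0.00653) called in all 16 fits and a fall of 1.34 with KN046 (adjusted p = 0.0322) kept in 1 of 8. With the control pairs summed, the interactions of Ifi205, Bst2 and Ccl5 stayed called (adjusted p = 0.0296, 0.0167 and 0.0323). The falls were not called: Ifi205 with SB525334 (0.152), Bst2 with SB525334 and KN046 (0.13 and 0.25) and Ccl5 with KN046 (0.215). Irf8, Ifi205, Bst2 and Ccl5 were named because they were called against control. Those comparisons share groups with the interaction, so its calls in these genes are not independent of that choice. Over the 58 dendritic cell list genes tested the interaction was called for 5 (8.62%), against 4.28% of all genes. Cd40, named by the same rule, was the other gene called. Its interaction was 1.57 (adjusted p = 0.0244), called in 11 of 16 fits and not with the control pairs summed (adjusted p = 0.0726). The 8 members all had an interaction above 0, while 48.9% of all genes had one below 0. Their median was 0.57 against 0.01 for all genes, and none was called.

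Other named genes passed the test mostly in the groups that received SB525334. In the list for cDC in general, 4 of 9 genes fell with SB525334 and the same 4 in the combination, where 9.61% and 11.1% of all genes were called in either direction. Dpp4, a peptidase on cDC1 and on bile canaliculi, went from 12.7 to 21.7 CPM in control to 1.12 to 2.83 CPM with SB525334. Haao, an enzyme of tryptophan breakdown, fell by 3.55 log2 units with SB525334, and Spint2, a protease inhibitor of epithelia, fell by 2.39. The fourth, Kmo, was named after its values were seen. Haao and Kmo are also enzymes of hepatocytes, and all 4 genes fell in both groups where the hepatocyte sum fell. From SB525334 to the combination the mean hepatocyte sum went from 2080 to 89.2 CPM. Over that step the mean of Kmo was 2.23 and 2.23 CPM, Dpp4 1.96 and 1.87, Haao 1.51 and 1.2, and Spint2 3.67 and 1.6. The part of hepatocyte RNA in these falls was not tested. Cd1d1, a lipid-presenting molecule of cDC2 and hepatocytes, fell by 1.49 with SB525334 and 1.76 in the combination, the only one of 7 cDC2 genes called in either comparison.

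Among the 10 pDC genes tested, Irf7, the interferon regulator, fell by 1.32 with SB525334 (adjusted p = 0.0245), in 4 of 8 fits that left out a mouse, while KN046 mouse 2 alone had 75.3 CPM. Of 11 mature dendritic cell genes, Cd40, the co-stimulatory receptor, fell by 1.15 with KN046 (adjusted p = 0.0331, in 2 of 8 fits) and was higher in the combination than with KN046 by 1.34 (adjusted p = 0.00189, in 8 of 8), with 1.6 to 2.77 CPM with KN046 and 3.75 to 7.6 CPM in the combination. Traf1, an adaptor of TNF receptors, was higher than control by 0.47 with SB525334 (adjusted p = 0.0171, in 4 of 8 fits) and 0.5 in the combination (adjusted p = 0.00865, in 8 of 8), and Socs2, a suppressor of cytokine signaling, fell by 1.23 in the combination. Of 10 growth and recruitment genes, Id2 and Nfil3, factors that cDC1 development uses, fell with SB525334 by 1.33 and 0.73, Nfil3 in 3 of 8 fits. Id2 also fell by 0.81 in the combination (adjusted p = 0.0307, in 4 of 8 fits), a call lost with the control pairs summed (adjusted p = 0.137). With the control pairs summed, Traf1 was called neither with SB525334 nor in the combination (adjusted p = 0.0985 and 0.0591). The calls against control of Irf7 (0.111), Cd40 (0.212) and Nfil3 (0.122) were also lost. Those of Socs2 in the combination (0.0413) and Id2 with SB525334 (0.00664) were kept. The ligand gene Xcl1 and the growth factor gene Csf2 were too low to test. Xcl1 had 3 to 12 counts in control mice, 1 to 6 with SB525334, 0, 0, 0 and 2 with KN046 and 1 to 7 in the combination, and Csf2 had at most 6 counts in any mouse.

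In the combination against KN046, 4 of 11 cDC1 genes were called higher and none lower, 4 higher and 1 lower of 11 mature dendritic cell genes, 2 and 1 of 10 pDC genes, 2 and 0 of 10 growth and recruitment genes, 1 and 1 of 7 cDC2 genes, and 0 and 4 of 9 genes of cDC in general, where 24.4% of all genes were called. The members Xcr1, Clec9a and Batf3 were not called in that comparison. In control the mean level of the cDC1 list genes ran from 0.607 CPM for Snx22 to 73.1 CPM for Ppt1. Xcr1, Clec9a and Batf3 were at 0.678, 3.19 and 1.37 CPM. The cells that the reads of the list genes came from were not tested. With KN046 against control 1 cDC1, 1 pDC, 1 mature and 1 growth and recruitment gene were called lower and none higher. These calls stood beside markers of other leukocytes. The summed T cell markers were 37.5 to 47.3 CPM in control, 20.9 to 37.9 CPM with SB525334, 8.33 to 22.1 CPM with KN046 and 32.5 to 68.7 CPM in the combination, and 6 of 8 T cell genes were called lower with KN046 than in control. The summed markers of all leukocytes were 420 to 520, 344 to 435, 241 to 368 and 384 to 544 CPM in the same order, with 4 of 8 genes called lower with KN046. These counts depended on single mice: without KN046 mouse 1 they were 0 and 0, without KN046 mouse 3 they were 1 and 0, and without control mouse 1, 2, 3 or 4 they were 4, 3, 2 and 3 T cell genes and 1, 0, 0 and 0 leukocyte genes. Without KN046 mouse 2 they were 7 and 6. All 8 T cell genes, 5 of 8 leukocyte genes and 5 of 9 macrophage genes were called higher in the combination than with KN046. In the same comparison 1 macrophage gene and all 7 Kupffer cell genes were called lower. Of 3 NK cell and 6 B cell genes tested 1 each was called higher, and of 6 monocyte and 6 neutrophil genes 0. The summed NK cell markers were 43.5 to 48.7 CPM in control and 47.3 to 67.3 CPM with KN046, and the B cell markers 1.78 to 4.73 and 2.65 to 10.8 CPM. The part that the amount of leukocyte RNA has in the levels of the members was not tested.

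**Figure D4:**
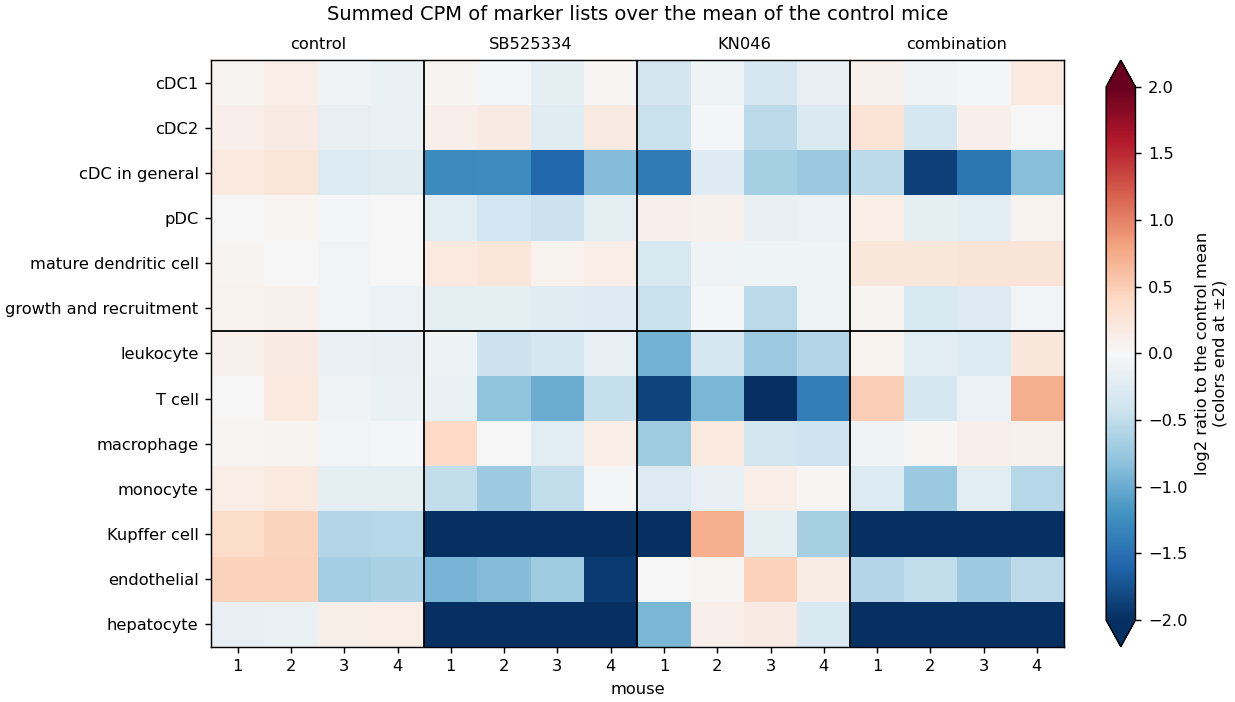
Log2 ratio of each marker list's summed CPM to the mean of the 4 control mice (color, ending at ±2), for 13 lists (rows, dendritic cell lists above the line) and 16 mice (columns). T cell markers were below the control mean in all KN046 mice and the list for cDC in general in all 12 treated mice, while hepatocyte markers left the color range in all SB525334 and combination mice.

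Over the 16 mice, the members nearest to each other in Pearson r of log2(CPM + 1) were Clec9a and Siglech at 0.88, Xcr1 and Cd209a at 0.79, Clec9a and Batf3 at 0.75, Flt3 and Siglech at 0.75 and Clec9a and Flt3 at 0.73. These values share libraries and the group differences and are given as a description. Among 12839 genes with a mean of at least 1 CPM, the genes most like Batf3 were Cybb at 0.92, Apobec1 at 0.89 and Mpeg1 at 0.87, and those most like Flt3 were Prob1 at 0.9, Gripap1 at 0.89 and Csf2ra, a receptor subunit for GM-CSF, at 0.88. Clec9a was nearest to Grk3 at 0.89 and F830016B08Rik and Gimap8 at 0.87, and Siglech to Aatk at 0.92 and Arhgap25 and Gimap8 at 0.9. Cd209a was nearest to Slc35f5 at 0.86, Pts at 0.84 and Ccdc134 at 0.83, and Xcr1 to Pts at 0.84 and Dnase1l2 and Irf3 at 0.83. For Zbtb46 the nearest genes were Ppp1r26, Kcnd1 and Tcp11l1, each at 0.91, and for Fscn1 Zfp64 at 0.94, Dnpep at 0.93 and Ralb at 0.92. No member was among the 3 genes nearest to another member, apart from those under 1 CPM, which were not searched.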

How the data were processed

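RNA of tumor tissue from 16 mice was sequenced on an Illumina HiSeq. Per the labels and the study's methods, the authors filtered the reads (Cutadapt 2.7), mapped them (HISAT2 2.2.1, GRCm39) and counted them per gene (HTSeq 2.0.4), and used DESeq2 1.38.3 for the normalized values and tests. Whether strand was used in counting is not given in the sources used here. The deposited raw counts were analysed, and the normalized values were not used. Gene identifiers were matched to GENCODE M39, which holds 21770 of the 21959, and 174 of 175 list genes were found. Groups came from the treatment label.

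Counts were fitted in R 4.3.3 with edgeR 4.0.16 (TMM, filterByExpr with a minimum count of 10, quasi-likelihood, all 16 mice, no block), with Benjamini-Hochberg adjustment and a threshold of 0.05. The biological coefficient of variation was 20.1%. The test was tried on simulated counts. Limits of 3 counts for a count of 0 cover counting error only. The members and lists were chosen with earlier results of these data known. All 8 members were described, with Flt3l, Xcl1 and Csf2, and up to 3 genes of each dendritic cell list, those with the largest change among genes called against control, and the 3 genes nearest to each member. Alternatives were DESeq2 1.42.0, other scalings and filters, the 8 mice of a comparison alone, summed control pairs, a replicate block, leaving out each mouse, and an unadjusted p under 0.05 with a fold over 2.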

Additional observations from a re-analysis of the deposited data

Results flagged for a closer look

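In groups of 4 mice, 11 of the 172 groups of values examined had a mouse far from the other 3, where chance gives 8.6. Cd209a was at 3.66 CPM in SB525334 mouse 2, against 0.768 to 1.03 CPM in the other SB525334 mice. Siglech was at 1.7 CPM in KN046 mouse 2, against 0 to 0.156 CPM. Xcl1 was at 0.104 CPM in KN046 mouse 4 and at 0 in the other KN046 mice, a difference of 2 counts. Ifi205 was low in KN046 mouse 3, at 3.24 CPM against 6.29 to 6.86 CPM. Cd1d1 was at 9.04 CPM in SB525334 mouse 2, against 4.95 to 5.42 CPM. Spint2 was at 16.7 CPM in control mouse 1, against 19.8 to 20.3 CPM. In KN046 mouse 2, Irf7 was at 75.3 CPM against 15.9 to 22.3 CPM and Socs2 at 18.4 CPM against 7.32 to 7.53 CPM. Ccl5 was at 11.5 CPM in control mouse 2, against 9.59 to 9.82 CPM. The summed mature dendritic cell list was 221 CPM in KN046 mouse 1, against 258 to 261 CPM, and the summed epithelial list was 990 CPM in KN046 mouse 2, against 1480 to 1550 CPM. Of the 11, 4 belong to KN046 mouse 2.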

How the results depend on the processing

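The number of members called moved by 1 to 3. At an unadjusted p under 0.05 and a fold over 2 it was 2 with SB525334 against control (Clec9a and Siglech), 1 with KN046 against control, 1 in the combination against control, 1 in the combination against SB525334 (Cd209a in each) and 2 in SB525334 against KN046 (Cd209a and Xcr1), where 9.9%, 4.08%, 10.2%, 5.88% and 10.7% of all genes passed. With KN046 against control DESeq2 and the fit with a replicate block each called 1 (Cd209a). Fitting the 8 mice alone, which left 6 members tested, called 1 in the combination against control and 0 in SB525334 against KN046, where no filter on low counts also gave 0. With library totals only, 1 (Fscn1) was called in the combination against KN046, and in SB525334 against KN046 the 1 call was Fscn1 in place of Cd209a. Leaving out each mouse gave 0 to 1 with SB525334 against control, 0 to 3 with KN046 against control, 0 to 1 in the combination against control, 0 to 1 in the combination against KN046 and 0 to 3 in SB525334 against KN046. RLE scaling, scaling without hepatocyte genes, a mean of at least 1 CPM and summed control pairs moved no count, and no alternative moved the interaction. Of 1015 alternative values of 56 member differences, 37 had another sign, in 15 differences, with no call on either side. These counts leave out Fscn1 with KN046 against control, which was 0.0 when rounded and lay between -0.09 and 0.07 over 18 alternatives. For deviations from the group mean, same-numbered mice of different groups had a median r of 0.0836 (24 pairs, -0.483 to 0.527, 11 over 0.1). Other pairs of different groups had a median r of -0.0325 (72 pairs, -0.526 to 0.505, 19 over 0.1). The ranges overlapped, and the numbers were not taken to pair mice. All genes called with KN046 against control numbered 559 by edgeR, 1250 by DESeq2, 2096 without KN046 mouse 2 and 21 without KN046 mouse 1. Depth limits Xcr1 and Siglech most, at 175 and 155 counts in all. The samples were taken as separate animals from their numbered titles, which is uncertain for the control pairs that were close to each other. Nothing says whether tumors were handled in batches.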
